A study of Mus musculus with 18 samples.

Results

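The genes described here carry symbols made of Tmem and a number, the placeholder name given to proteins predicted to cross a membrane, and they comprise 195 of the 13973 genes in the deposited count table. They were taken by symbol alone, and Tmem119 was left out. RNA was sequenced from hippocampal and cortical slices of male C57BL/6N mice, wild type (WT) or with a knockout of Fmr1 backcrossed onto C57BL/6 (KO), at postnatal day 28 to 35, which asks how mRNAs on polysomes respond to a block of initiation and whether the Fmr1 product FMRP matters for it. Slices of both genotypes, all from mice anaesthetised with ketamine and xylazine and perfused, were held for 30 min with 20 µM homoharringtonine (HHT) or with its vehicle DMSO, and 10 slices from 2 or 3 mice were pooled for each lysate. Every lysate gave a cleared lysate library (input) and a medium and a heavy polysome library from a sucrose gradient. The 12 groups hold 2 replicates each under HHT (6 groups) and 1 library each in vehicle (6 groups), 18 libraries in all.

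TMEM is a naming convention and not a family by descent. Its members include ion channels, lipid flippase subunits, assembly factors of mitochondrial complexes, parts of the ciliary gate and proteins of the Golgi and lysosome. Most membrane proteins of the secretory pathway are recognised by the signal recognition particle once a first hydrophobic segment leaves the ribosome, which is then moved to the endoplasmic reticulum (ER), whereas most mitochondrial membrane proteins are made on free ribosomes and imported later. HHT arrests ribosomes just after initiation, so that those already elongating can run off the mRNA. Tissue was homogenised without detergent and spun at 2000 g and 10000 g before 1% NP-40 was added, so RNA that pelleted in those spins was not measured, and its part in the results was not tested.

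A coding sequence was found for 192 of the 195 members, 10 of them under an older symbol. Tmem134, Tmem181b-ps and Tmem181c-ps had none, and the last 2 are pseudogenes close in sequence to Tmem181a, so the split of reads among the 3 is uncertain. The encoded proteins had a median length of 283.5 residues, from 72 (Tmem167) to 1877 (Tmem131), against 534 residues for the 4711 other genes with a predicted hydrophobic segment and 459 for the 8581 without one. A segment, meaning 19 residues with a mean Kyte-Doolittle hydropathy of at least 1.6, was predicted in 183 of 192 members (95.3%), and Tmem245 had the most, 12. The members differed in where the first segment began, and 5 coding stretches are shown because the responses described below differed with that position. Each stretch is from GENCODE M21 on GRCm38, read 5′ to 3′ on the coding strand, and the capitals mark the 57 bases of the first predicted segment. Tmem130 (chr5:144735915-144761818, minus strand) and Tmem63b (chr17:45660171-45686905, minus strand) are shown from the start codon, with segments that begin at residue 7 and residue 44. Tmem126a (chr7:90450700-90457229, minus strand), Tmem199 (chr11:78507055-78512172, minus strand) and Tmem55b (chr14:50926068-50930856, minus strand) are shown around first segments that begin at residue 108, 145 and 220.
Tmem130: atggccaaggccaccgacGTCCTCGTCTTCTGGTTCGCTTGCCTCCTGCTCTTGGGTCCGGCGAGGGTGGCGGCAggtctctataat
Tmem63b: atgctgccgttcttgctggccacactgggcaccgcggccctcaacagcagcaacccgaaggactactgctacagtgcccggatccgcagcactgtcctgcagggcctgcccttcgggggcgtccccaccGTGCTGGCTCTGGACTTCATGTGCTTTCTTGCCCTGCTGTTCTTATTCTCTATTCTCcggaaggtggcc
Tmem126a: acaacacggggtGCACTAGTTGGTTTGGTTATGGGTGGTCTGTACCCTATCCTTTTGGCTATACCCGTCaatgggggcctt
Tmem199: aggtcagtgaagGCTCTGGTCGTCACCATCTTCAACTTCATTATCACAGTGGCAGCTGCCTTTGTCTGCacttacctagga
Tmem55b: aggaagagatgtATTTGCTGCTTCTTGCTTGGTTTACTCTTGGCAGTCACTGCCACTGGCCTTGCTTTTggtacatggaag
The first 2 mRNAs rose in medium polysomes under HHT and the other 3 fell. The 3 are examples of falls: of all 69 members without a segment starting within residues 1 to 60, 22 rose and 12 fell in medium.

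Library totals ran from 6226237 to 13834652 estimated counts. Levels in CPM are counts scaled to the library total multiplied by its TMM normalisation factor from edgeR, and not to the total alone. Fmr1 held 4.62 to 8.53 CPM in KO libraries and 13.9 to 32.2 in WT libraries, without overlap. Summed neuron markers held 5620 to 10200 CPM over all libraries, and no measured marker of neurons, astrocytes, oligodendrocytes or their precursors, microglia, vessels, choroid plexus, blood, hippocampus, thalamus or striatum was at 0 in every library. Every level is relative to the rest of its own library, since each library was built from 200 ng of RNA. Each change is a log2 fold change with its SE, fitted by edgeR's quasi-likelihood test. The p-values were adjusted by the Benjamini-Hochberg method over all 13973 genes. The words rose and fell are used where the adjusted p was under 0.05. The labels call the HHT replicates biological replicates.

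TMEM mRNAs were mostly of moderate abundance. All 195 passed the low-count filter, 157 had a mean of at least 5 CPM over the 18 libraries and 39 had at least 50, with a median of 14.7 and a range from 0.921 to 411 CPM. On the length-scaled scale of the second deposited table (rescaled TPM), their median level in vehicle input was 19.1, against 21.7 for all genes. Tmem59l, a brain-enriched relative of the Golgi protein Tmem59, was highest at 211 in WT and 340 in KO. It was followed by Tmem151a at 191 and 237, Tmem222 at 138 and 144, and Tmem38a, the ER cation channel TRIC-A, at 118 and 136. At the low end were Tmem173, the innate immune adaptor STING, with 1.15 in WT and 2 in KO, Tmem72 with 1.45 and 1.14, and Tmem252 with 2.15 and 1.1 rescaled TPM. With 1 library per genotype these vehicle levels have no replicate spread, so the order of close neighbours cannot be told.

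The members together took a larger share of the library under HHT. In input they held 0.713 to 0.816% of all counts in the 4 HHT libraries and 0.505 to 0.581% in the 2 vehicle libraries. In medium the shares were 0.704 to 0.799% and 0.494 to 0.542%, and in heavy 0.662 to 0.726% and 0.269 to 0.316%. The ranges did not overlap in any fraction, and the vehicle heavy libraries had the lowest shares. In every HHT group replicate 1 had a larger share than replicate 2, in heavy 0.726% (WT) and 0.724% (KO) against 0.662% and 0.666%.

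In vehicle slices the question is where TMEM mRNAs sit on the gradient. Relative to input they were under-represented in heavy polysomes: 86 of 195 (44.1%) were lower and 3 higher, while 21.7% of all genes were lower and 24.8% higher. The median log2 ratio of heavy to input was -0.50 for members and -0.02 for all genes. Tmem184c had the lowest ratio among protein-coding members, -1.91 ± 0.25 (adjusted p = 7.77e-05). It held 33.4 CPM in WT and 41.6 in KO input, and 8.68 and 11.3 in heavy. The complex I assembly factor Tmem126a (-1.67 ± 0.25, adjusted p = 0.00016), the oligosaccharyltransferase subunit Tmem258 (-1.64 ± 0.35, adjusted p = 0.00167) and the ER translocon partner Tmem147 (-1.68 ± 0.24, adjusted p = 0.00012) were also low. All encode proteins of the ER or mitochondria except Tmem184c, for which no role list was used. The 3 members above input in heavy were Tmem135, Tmem143 and Tmem214. Tmem135, linked to peroxisomes and mitochondria, held 61.3 CPM in WT and 62.1 in KO input, and 124 and 121 in heavy, a ratio of 0.99 ± 0.13 (adjusted p = 7.07e-05). In the same gradients it was below input in medium (45.7 and 48 CPM, -0.40 ± 0.13, adjusted p = 0.0466). With total counts in place of TMM scaling 137 members were lower and 1 higher in heavy. That scaling moved the median of all genes to -0.41 in this comparison and that of members to -0.89.

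The mRNAs of short TMEM proteins had the lowest ratios of heavy to input. Of 53 members of up to 200 residues 40 were lower and 0 higher (median -1.03). The median was -0.47 for the 55 members of 201 to 300 residues (21 lower), -0.44 for the 51 of 301 to 500 (20 lower) and -0.31 for the 33 over 500 (3 lower). Across the 192 members protein length and the heavy to input ratio had a Spearman correlation of 0.54 and, with log2 length, a Pearson correlation of 0.51. These are descriptions across genes of the same libraries. The other genes with a segment had medians of -0.95, -0.61, -0.32 and 0.16 in the same length classes. Members over 500 residues thus had a lower median than the other genes of that class. The class has no upper limit, and the longest protein had 1877 residues among members and 8799 among the other genes. The difference in medians was not tested.

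**Figure D1:**
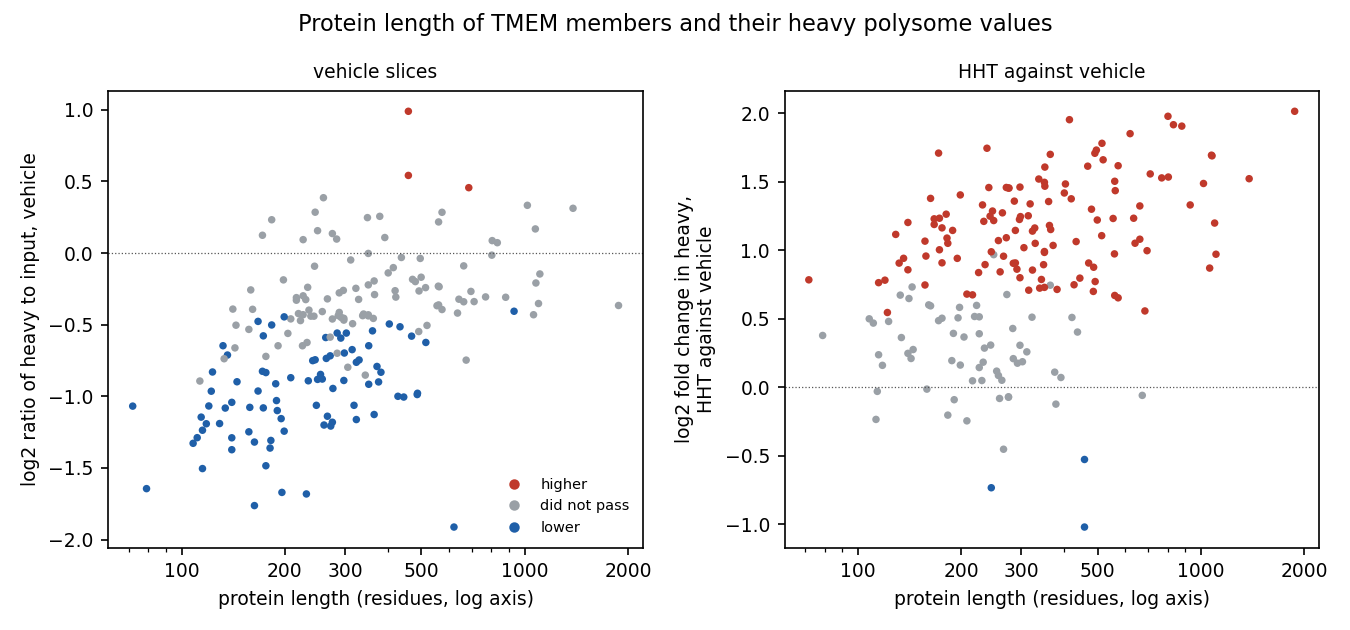
Each point is a TMEM member with a coding sequence, by protein length in residues (log axis). The left panel gives the log2 ratio of heavy to input in vehicle slices and the right panel the log2 fold change in heavy polysomes, HHT against vehicle. In vehicle 40 of the 53 members of up to 200 residues were lower in heavy, and under HHT 32 of the 33 members over 500 residues rose. Both panels use the same vehicle heavy libraries, with opposite sign, so they are not independent of each other.

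In medium polysomes of vehicle slices the median TMEM mRNA had a ratio to input near 1. Relative to input 7 of 195 were higher and 9 lower, beside 10.2% and 9.5% of all genes, with medians of -0.02 and 0.01. Tmem179 was highest, with 61.8 CPM in WT and 88.1 in KO input against 128 and 141 in medium (0.87 ± 0.15, adjusted p = 0.00461). Of the 13 mitochondrial members 3 were higher: Tmem14c, which takes part in porphyrin transport for heme synthesis (0.79 ± 0.22, adjusted p = 0.0236), Tmem70, an assembly factor of the ATP synthase (0.55 ± 0.16, adjusted p = 0.0309), and Tmem65 (0.51 ± 0.15, adjusted p = 0.0326). Tmem242 was lower (-0.68 ± 0.18, adjusted p = 0.0214), as were Tmem147 (-0.81 ± 0.21, adjusted p = 0.0203) and the lysosomal Tmem192 (-0.89 ± 0.26, adjusted p = 0.0311). By total counts 3 were higher and 11 lower, and by limma 3 and 16. Leaving out 1 HHT lysate, which enters through the shared spread, left 3 to 5 higher, with 3 without KO HHT replicate 1 and 4 without KO HHT replicate 2.

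HHT raised TMEM mRNAs in the cleared lysate and lowered none of them past the threshold. In input 74 of 195 members (37.9%) rose and 0 fell, beside 12.2% and 0.215% of all genes. The median change was 0.47, against 0 for all genes, and 172 of 195 values were above 0. In this respect the members resembled the 4711 other genes with a hydrophobic segment, of which 31.5% rose (median 0.38), more than the 8581 without one, of which 1.55% rose (median -0.06). No test between these classes was made. The calls rested in part on single lysates: 47 members rose without KO HHT replicate 1, 34 rose in WT slices alone and 5 in KO slices alone.

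In medium polysomes TMEM mRNAs moved both ways. HHT raised 89 of 195 (45.6%) and lowered 12 (6.15%), beside 25.4% and 21.5% of all genes, with medians of 0.49 and 0.03. In heavy polysomes 128 rose (65.6%) and 3 fell (1.54%), beside 27.1% and 24.7%, with medians of 0.91 and 0.06. Of the other genes with a segment 49.1% rose and 7.79% fell in medium and 52.5% rose and 11.3% fell in heavy. KO slices alone gave 48 rises and 2 falls among members in medium. The 3 fractions were compared with vehicle libraries of the same 2 lysates, so the comparisons are not independent of each other. The vehicle medium and heavy libraries also enter their ratios to input in vehicle, with opposite sign, and the change of those ratios under HHT.

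**Figure D2:**
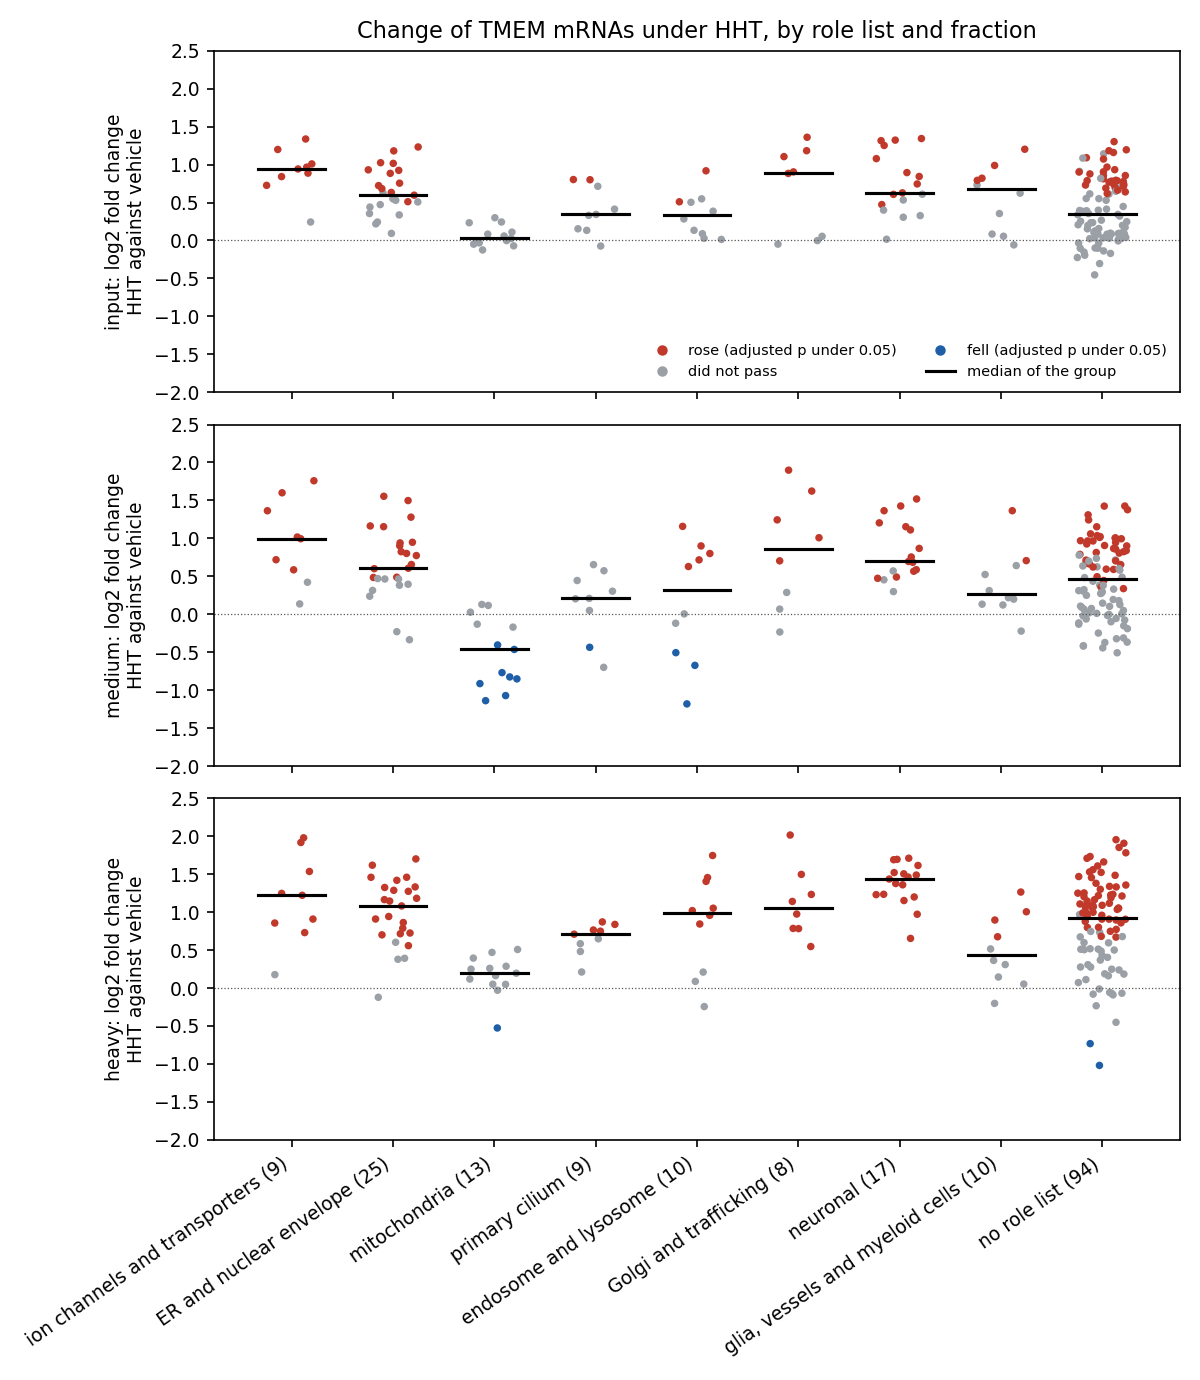
Each point is a TMEM member, placed by role list (number measured in brackets) and by its log2 fold change, HHT against vehicle, in input (top), medium (middle) and heavy (bottom). Bars are group medians. In medium 8 of 13 mitochondrial members fell and 0 rose, while 7 of 9 channels and transporters rose.

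Most channels and transporters rose in each fraction. The shares of all genes beside which the counts of each role list stand are 12.2%, 25.4% and 27.1% higher and 0.215%, 21.5% and 24.7% lower in input, medium and heavy. Of 9 measured members 8 rose in input, 7 in medium and 8 in heavy, and 0 fell, with median changes of 0.94, 0.99 and 1.22. The Tmem63 genes encode mechanosensitive cation channels of the OSCA class, and all 3 rose in every fraction. Tmem63b held 187 and 104 CPM in WT HHT input and 198 and 164 in KO HHT input, against 51.5 (WT) and 80.5 (KO) in vehicle. In medium it held 210 and 149 (WT) and 209 and 169 (KO) against 49.5 and 74.4, and in heavy 264 and 246 (WT) and 257 and 257 (KO) against 58.1 and 78.8. The HHT libraries lay above both vehicle libraries in each fraction, and the KO vehicle library above the WT one. The changes of Tmem63b were 1.34 ± 0.22 in input (adjusted p = 0.00186) and 1.92 ± 0.23 in heavy (1.78e-05), and it also rose in medium (0.000157). Tmem63c changed by 1.20 ± 0.26, 1.76 ± 0.27 and 1.98 ± 0.27, and Tmem63a by 1.01 ± 0.20, 1.36 ± 0.21 and 1.54 ± 0.22. The lysosomal potassium channel Tmem175 held 15.3 to 23.2 CPM in the 6 vehicle libraries and 27.1 to 42.1 in the 12 HHT libraries, and changed by 0.94 ± 0.19, 0.99 ± 0.19 and 1.22 ± 0.20. Tmem165, a Golgi manganese exchanger, rose by 1.02 ± 0.17 in medium (adjusted p = 0.000468), and the zinc transporter Tmem163 by 0.72 ± 0.19 (adjusted p = 0.00799).

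Among 25 members of the ER and nuclear envelope 13 rose in input, 16 in medium and 21 in heavy, and 0 fell (medians 0.60, 0.61 and 1.08). Tmem43, of the inner nuclear membrane, held 9.24 (WT) and 16 (KO) CPM in vehicle medium and 38.3, 31.1, 41.6 and 32.5 in HHT medium, a rise of 1.55 ± 0.22 (adjusted p = 0.000164). Tmem30a, the shared subunit of phospholipid flippases, rose in medium by 1.50 ± 0.22 (adjusted p = 0.000211) and in heavy by 1.70 ± 0.23 (adjusted p = 4e-05). Its vehicle levels fell along the gradient, from 117 (WT) and 139 (KO) CPM in input to 69.4 and 92.8 in medium and 50.8 and 67.1 in heavy. Under HHT it held 273 and 242 (WT) and 294 and 160 (KO) in input, and 194 and 153 (WT) and 228 and 187 (KO) in heavy. Membralin, Tmem259, an ER quality control component, changed by 1.16 ± 0.18 in medium, and the ER lipid scramblase Tmem41b by 1.15 ± 0.18. Tmem258, which at 79 residues is among the 3 shortest, changed by -0.23 ± 0.25 in medium and did not pass in any fraction. The machinery that inserts such proteins, 42 measured genes of the signal recognition particle, translocon and related complexes that are not members, had 21 higher and 0 lower in input. In medium 20 were higher and 10 lower, and in heavy 25 and 5.

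No member of the mitochondrial role list rose in medium, and most of them fell there. That list was chosen with earlier results of these data known. Tmem135, also linked to mitochondria, was not on it and rose in medium. Of 13 measured, 0 passed in input (median 0.03), 8 fell and 0 rose in medium (median -0.46), and 1 fell in heavy (median 0.20). By RLE factors and by total counts the input median was -0.03 and -0.08, and the medium count stayed at 8. Tmem126a held 8.32 (WT) and 6.47 (KO) CPM in vehicle medium and 3, 3, 3.65 and 3.72 under HHT, a change of -1.14 ± 0.19 (adjusted p = 0.000378). Its input levels overlapped, at 7.7 and 8.04 in vehicle and 6.66 to 9.38 under HHT. Tmem70 held 44.3 (WT) and 36.2 (KO) in vehicle medium and 23.5, 22.2, 21.9 and 22.9 under HHT (-0.83 ± 0.14, adjusted p = 0.000401). Tmem14c went from 29.4 and 26 to 12.6, 15.3, 14.7 and 16.1 (-0.91 ± 0.18, adjusted p = 0.00132), and Tmem11, which shapes inner membrane cristae, from 46.9 and 44.1 to 28.1, 26, 25.8 and 26.8 (-0.77 ± 0.15, adjusted p = 0.00122). In all 4 the vehicle libraries of medium lay above every HHT library of medium. The other falls were Tmem126b (-1.07 ± 0.24), Tmem160 (-0.85 ± 0.19), the complex I assembly factor Tmem186 (-0.46 ± 0.16) and Tmem143 (-0.40 ± 0.14). In KO slices alone 1 of the 13 fell in medium, and in WT slices alone 7.

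Endosomal and lysosomal members split in medium, where 5 of 10 rose and 3 fell (median 0.32). In heavy 7 rose and 0 fell (median 0.99), and in input 2 rose (median 0.33). The 3 that fell were Tmem199, which acts in assembly of the proton pump V-ATPase, and the phosphoinositide 4-phosphatases Tmem55a and Tmem55b. Tmem199 had the largest fall of any member in medium: 37.4 (WT) and 32.1 (KO) CPM in vehicle against 14.3, 14.8, 15.8 and 16.2 under HHT, a change of -1.18 ± 0.17 (adjusted p = 0.000165). In input it held 21.6 and 20.2 in vehicle and 18.1 to 28.2 under HHT, which overlap. Tmem55a changed by -0.67 ± 0.15 (adjusted p = 0.00205) and Tmem55b by -0.51 ± 0.14 (adjusted p = 0.01). On the rising side were Tmem106b, a lysosomal protein known as a frontotemporal dementia risk gene (1.16 ± 0.22, adjusted p = 0.00105), Tmem9b (0.90 ± 0.14) and Tmem9 (0.80 ± 0.16). Tmem106b held 60.3 (WT) and 73.4 (KO) in vehicle medium and 148, 161, 140 and 145 under HHT. Its close relative Tmem106c did not pass in medium (0.00 ± 0.19) and rose in heavy (0.84 ± 0.22, adjusted p = 0.00585).

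Golgi and trafficking members rose or did not pass. Of 8, 5 rose in input, 5 in medium and 8 in heavy (medians 0.89, 0.86 and 1.06). Tmem131, which takes part in collagen secretion and is the longest member, held 20.2 (WT) and 28.2 (KO) CPM in vehicle medium and 115, 81, 96.3 and 66 under HHT. In heavy it went from 28.1 and 33.4 to 122, 132, 125 and 117. Its changes were the largest of all members in both pools, by 1.90 ± 0.26 in medium (adjusted p = 0.000157) and by 2.02 ± 0.26 in heavy (adjusted p = 3.46e-05). Tmem115 changed by 1.62 ± 0.20 in medium (adjusted p = 0.000104), from 20.7 and 32.5 to 80.6, 70.8, 84.8 and 84.1 CPM. Tmem87a had the largest rise in input (1.36 ± 0.20, adjusted p = 0.00129) and also rose in heavy (0.97 ± 0.22, adjusted p = 0.00236), and its relative Tmem87b rose by 0.88 ± 0.20 and 1.23 ± 0.22. Tmem167, at 72 residues the shortest member, changed by -0.05 ± 0.16 in input and 0.07 ± 0.17 in medium and rose in heavy (0.79 ± 0.19, adjusted p = 0.00307).

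Of 17 neuronal members 11 rose in input, 14 in medium and all 17 in heavy, and 0 fell (medians 0.63, 0.70 and 1.44). Summed neuron markers went from 6410 to 6890 CPM in vehicle input to 7910 to 8800 under HHT, and from 5620 to 6160 to 7480 to 9330 in heavy. The sum followed 2 of its 5 genes: in input Syt1 went from 827 and 1150 to 1400 to 2560 and Slc17a7 from 1440 and 1830 to 2030 to 3270. Snap25 held 3050 and 3280 against 2650 to 3530, Rbfox3 447 and 472 against 409 to 438, and Gad1 388 and 420 against 297 to 399. In heavy Snap25 (2820 and 2940 against 1820 to 2080) and Gad1 (832 and 838 against 514 to 582) were lower in every HHT library than in vehicle. The part of these shifts in the result was not tested. Tmem130 held 67.9 (WT) and 119 (KO) in vehicle input against 238, 187, 227 and 250 under HHT, and rose by 1.32 ± 0.18 in input (adjusted p = 0.0011), 1.43 ± 0.19 in medium and 1.38 ± 0.19 in heavy. Tmem59l rose by 1.34 ± 0.17, 1.20 ± 0.17 and 1.52 ± 0.18, and Tmem35, the chaperone of nicotinic receptors NACHO, by 1.25 ± 0.17, 1.11 ± 0.17 and 1.23 ± 0.19. Other members rose in heavy above all. Tmem151a held 243 (WT) and 307 (KO) CPM in vehicle input, 303 to 470 under HHT, 166 and 201 in vehicle heavy, and 601, 541, 556 and 539 in HHT heavy. Its ranges overlapped in input and lay far apart in heavy, with changes of 0.63 ± 0.16 (adjusted p = 0.016), 0.75 ± 0.16 and 1.61 ± 0.16 (adjusted p = 8.01e-06). Tmem145 changed by 1.08 ± 0.18, 1.36 ± 0.19 and 1.44 ± 0.20.

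The Tmem132 genes encode large adhesion-type proteins of neurons, and all 5 rose in heavy, from 0.97 ± 0.28 (Tmem132c) to 1.70 ± 0.24 (Tmem132e). Tmem132a, the most abundant, held 157 (WT) and 182 (KO) CPM in vehicle heavy and 544, 466, 467 and 425 under HHT. In input Tmem132a (1.32 ± 0.24) and Tmem132b (0.75 ± 0.23) rose, and Tmem132c, Tmem132d and Tmem132e had changes of 0.61, 0.33 and 0.53 that did not pass. Other sets of relatives also rose together in heavy. Tmem151b changed by 1.50 ± 0.18 beside Tmem151a, Tmem178b by 1.71 ± 0.31 beside Tmem178 (1.46 ± 0.17), and Tmem59 by 1.14 ± 0.20 beside Tmem59l. Differences between relatives were not tested.

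Of the 10 members of glia, vessels and myeloid cells, 4 rose in input, 2 in medium and 4 in heavy, and 0 fell (medians 0.68, 0.26 and 0.44). In bulk tissue fewer cells of a type and less RNA per cell cannot be told apart. Vessel markers, all 5 measured and none at 0, summed to 36.4 to 43.6 CPM in HHT input against 14.5 to 14.9 in vehicle. Microglial markers, again 5 of 5, summed to 81.7 to 105 against 45.3 to 68.9 in input and to 29.2 to 47.3 against 45.4 to 48.9 in heavy. Astrocyte markers (5 of 5) summed to 747 to 782 against 463 to 528 in input and to 396 to 544 against 560 to 592 in heavy. In heavy that sum followed Gfap (103 to 125 against 228 to 305) and Aldh1l1 (38.8 to 56.4 against 95.8 to 99.9). Aqp4 (38.5 to 60.1 against 27.5 to 38.1), Slc1a3 (128 to 224 against 104 to 126) and Gja1 (82 to 120 against 59.6 to 68.4) were higher there in every HHT library. Oligodendrocyte markers (5 of 5) summed to 3080 to 3710 against 2510 to 2750 in input and to 2660 to 3010 against 1630 to 1680 in heavy. The 2 markers of oligodendrocyte precursors summed to 51.6 to 84.2 against 23.3 to 28.2 in input and to 43.9 to 73.4 against 24.9 to 27.8 in heavy. The part of these shifts in the result was not tested. Tmem176a, an ion channel of myeloid cells, rose in input (0.99 ± 0.26, adjusted p = 0.0223) and had a change of 0.31 ± 0.33 in heavy. Tmem176b changed by 0.79 ± 0.17 in input (adjusted p = 0.00819) and 0.05 ± 0.21 in heavy. Tmem173 went the same way, with 0.793 (WT) and 1.52 (KO) CPM in vehicle input and 2.62, 2.19, 2.04 and 3.06 under HHT (1.18 ± 0.28, adjusted p = 0.0122), against -0.12 ± 0.36 in heavy. Tmem47, a claudin-like junction protein, rose in all 3 fractions (0.82 ± 0.24, 1.36 ± 0.26 and 1.26 ± 0.28), and Tmem144 likewise (1.20 ± 0.24, 0.71 ± 0.23 and 0.90 ± 0.26). Tmem88b, Tmem98 and Tmem125, which are enriched in oligodendrocytes, did not pass in input or medium. In heavy, where the summed oligodendrocyte markers were also higher, Tmem88b (1.00 ± 0.13, adjusted p = 3.41e-05) and Tmem125 (0.68 ± 0.23, adjusted p = 0.0241) rose. Tmem98 had a change of 0.52 ± 0.31 there that did not pass.

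Of the 9 ciliary members, 2 rose in input, 0 rose and 1 fell in medium, and 5 rose in heavy (medians 0.34, 0.21 and 0.71). Most belong to the transition zone, the gate at the base of the cilium. The fall was Tmem237 in medium, where it held 18.1 (WT) and 15.7 (KO) CPM in vehicle and 12.5, 12, 13.4 and 11.9 under HHT (-0.44 ± 0.16, adjusted p = 0.034), and it rose in heavy (0.75 ± 0.19, adjusted p = 0.00378). Tmem67, also called meckelin, changed by 0.65 ± 0.27 in medium (adjusted p = 0.0634), Tmem17 by 0.57 ± 0.25 (0.0787) and Tmem216 by -0.70 ± 0.29 (0.0657), and none of these passed.

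The remaining 94 members, for which no role list was used, had 29 rises in input, 40 in medium and 58 in heavy, and 2 falls, both in heavy (medians 0.35, 0.46 and 0.92). Tmem184b held 37.3 (WT) and 59.8 (KO) CPM in vehicle heavy and 187, 186, 170 and 189 under HHT, a rise of 1.95 ± 0.22 (adjusted p = 1.32e-05). Tmem245 rose by 1.91 ± 0.32, Tmem184c by 1.85 ± 0.23, and Tmem127, a tumour suppressor, by 1.75 ± 0.19 (adjusted p = 1.27e-05). Tmem2, a hyaluronidase of the cell surface and one of the 3 longest members, rose in medium (1.42 ± 0.27) and heavy (1.52 ± 0.27). The falls were Tmem135 and Tmem69. Tmem135 went from 124 (WT) and 121 (KO) CPM in vehicle heavy to 61.3, 59.9, 62.7 and 57.8, a change of -1.02 ± 0.11 (adjusted p = 9.69e-06), and from 45.7 and 48 in vehicle medium to 69.6, 75.1, 73.1 and 82, a rise of 0.68 ± 0.11 (adjusted p = 0.000457). Its input levels lay between 61.3 and 73.5 in all 6 libraries, so the mRNA fell in heavy and rose in medium with a change of 0.20 ± 0.11 in input that did not pass. Tmem69 fell by 0.73 ± 0.23 in heavy (adjusted p = 0.0147), and the mitochondrial Tmem143, the third fall in heavy, by 0.53 ± 0.14 (adjusted p = 0.00572).

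**Figure D3:**
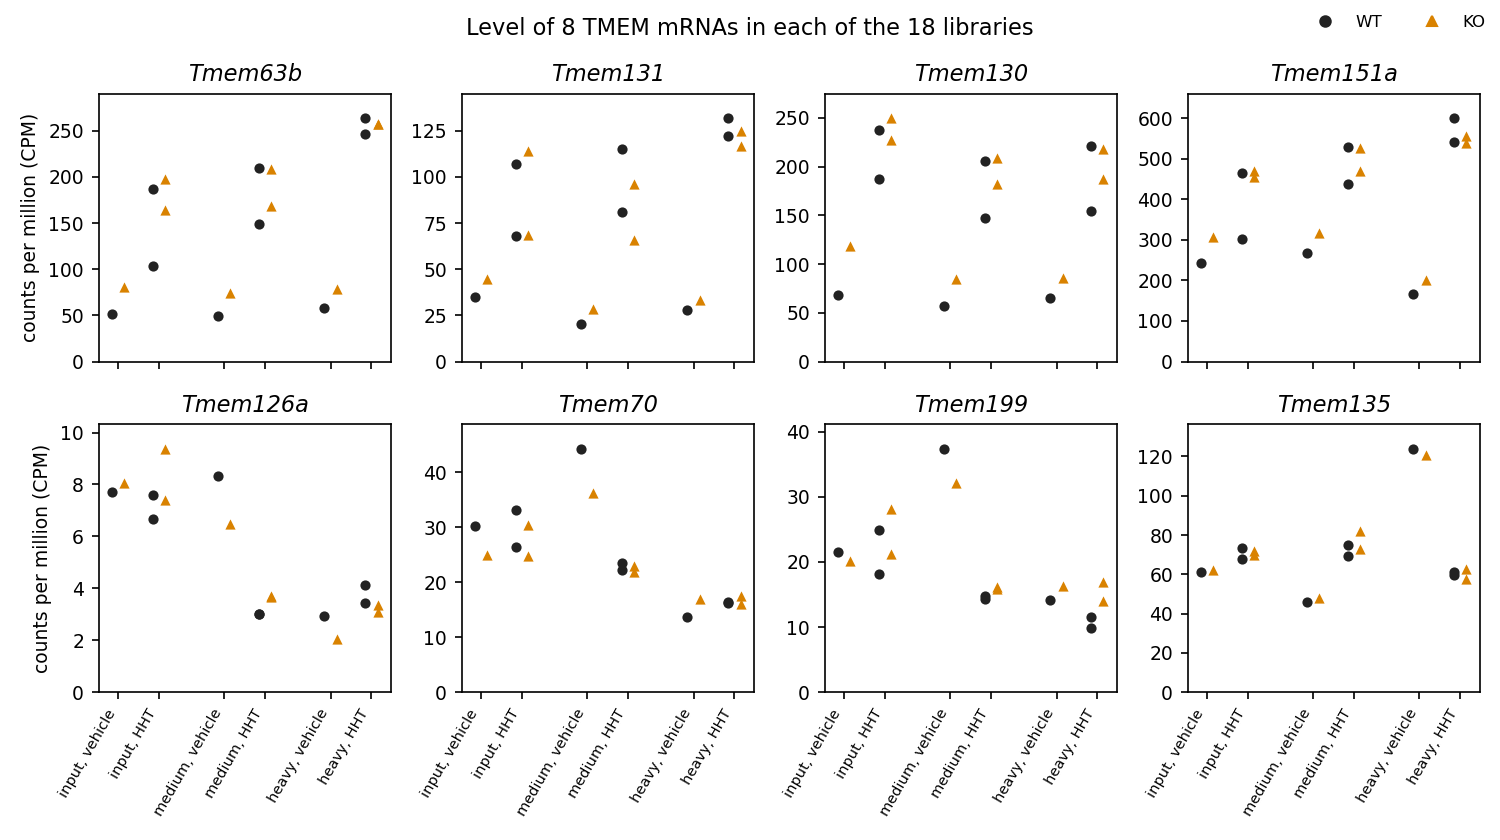
CPM of 8 TMEM mRNAs in each of the 18 libraries, by fraction and treatment on the x axis, with circles for WT and triangles for KO and a vertical axis from 0 in each panel. The HHT libraries of Tmem63b and Tmem131 lie above vehicle in every fraction, those of Tmem126a, Tmem70 and Tmem199 lie below vehicle in medium, and Tmem135 falls in heavy and rises in medium.

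Whether the polysome pools moved beyond the change in input was asked with the ratio to input, HHT against vehicle. For medium 2 of 195 ratios rose and 10 fell, beside 7.09% and 10.2% of all genes, with a median of -0.01 for both. Among members with a mean of at least 5 CPM the deepest falls were those of Tmem199 (-1.32 ± 0.24, adjusted p = 0.00479), Tmem14c (-1.21 ± 0.27, adjusted p = 0.00902) and Tmem126a (-1.11 ± 0.25, adjusted p = 0.0102), and 6 of the 10 were mitochondrial members. Tmem170b (0.90 ± 0.22, adjusted p = 0.0155) and Tmem164 (0.66 ± 0.20, adjusted p = 0.0385) rose. With each lysate as a block, since the 3 fractions of a replicate came from 1 lysate, 10 rose. By RLE factors 4 rose and 10 fell, and without KO HHT replicate 2 the falls numbered 2. For heavy 38 ratios rose and 2 fell, beside 12.6% and 16.3% of all genes, with medians of 0.36 and 0.01. Tmem184c (1.40 ± 0.29, adjusted p = 0.00349), Tmem178b (1.40 ± 0.41, adjusted p = 0.0217) and Tmem251 (1.39 ± 0.32, adjusted p = 0.00612) rose most. Tmem135 (-1.22 ± 0.16, adjusted p = 0.000218) and Tmem143 (-0.64 ± 0.20, adjusted p = 0.0268) fell. Without KO HHT replicate 2 there were 24 rises.

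The response in medium differed with the position of the first hydrophobic segment. Of the 123 members whose first segment began within residues 1 to 60, 67 rose and 0 fell in medium (median 0.64). Of 28 with a first segment at residues 61 to 120, 8 rose and 4 fell (median 0.17), of 32 with a later one 12 rose and 5 fell (median 0.15), and of the 9 with none 2 rose and 3 fell (median -0.25). All 12 falls therefore lay outside the first class. They are the falls in medium already given by role list, and 8 of them are mitochondrial members, so the 2 descriptions are not separate. The pattern was similar among members of 150 to 300 residues, where the classes differ less in length: 25 of 53 rose and 0 fell with an early segment (median 0.61), and of the 31 others 5 rose and 9 fell. The 13292 other genes with a coding sequence showed the same order, with medians of 0.68, 0.49, 0.29 and -0.15, and with 67 falls among 2243 genes of the first class. In the class of 150 to 300 residues their medians were 0.47, -0.11, -0.16 and -0.57. The limits of these classes were set after the values had been seen, and no test was made. The scan can miss short signal peptides, which then count as no early segment.

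**Figure D4:**
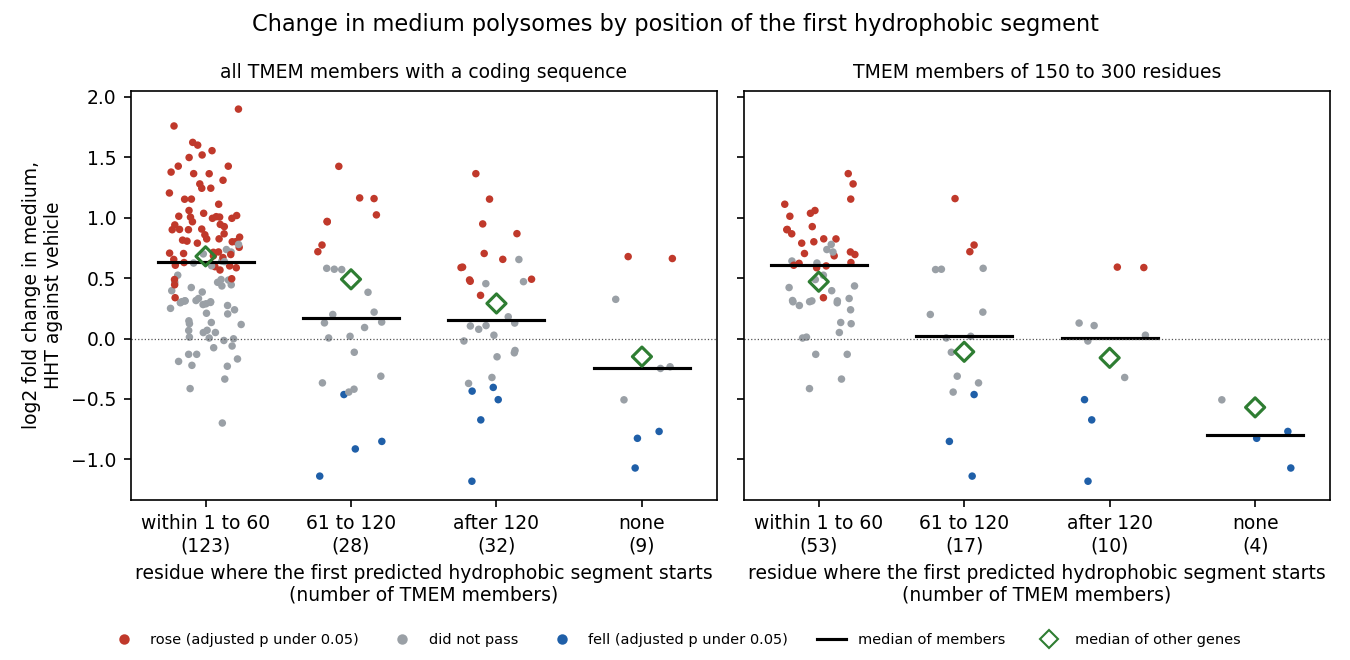
Log2 fold change in medium polysomes, HHT against vehicle, by the residue at which the first predicted hydrophobic segment starts, for all 192 TMEM members with a coding sequence (left) and those of 150 to 300 residues (right). Bars are medians of members and open diamonds medians of all other genes of the class. With a segment starting within residues 1 to 60, 67 of 123 members rose and 0 fell.

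Among members the median change was larger for longer proteins. In input the median change went from 0.13 for members of up to 200 residues through 0.39 and 0.65 to 0.78 over 500. In medium it went from 0.25 through 0.40 and 0.66 to 0.87, and in heavy from 0.67 through 0.80 and 0.99 to 1.44. Spearman correlations of length with the change across the 192 members were 0.41, 0.45 and 0.43. By number of segments (none, 1, 2, 3 or 4, and 5 or more) the medians in medium were -0.25, 0.12, 0.33, 0.59 and 0.97. With a hydropathy of at least 1.8 they were -0.08, 0.38, 0.32, 0.65 and 1.01, so the order was not steady between 1 and 2 segments. Other genes with a segment had medians of 0.05, 0.29, 0.51 and 0.62 in medium over the 4 length classes (Spearman 0.27). In input they had 0.21, 0.39, 0.49 and 0.34 (Spearman -0.05) and in heavy 0.50, 0.68, 0.79 and 0.60 (Spearman 0.04), with no steady order by length. The other genes with no segment had medians of -0.6, -0.53, -0.27 and 0.12 in medium. Their Spearman correlation there, 0.59, was above that of the members, and it was -0.14 in input and -0.15 in heavy. Length, number of segments and position of the first segment are related to each other among the members, and their separate parts were not tested.

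The Fmr1 knockout changed no member past the threshold under HHT. In KO against WT, 2 libraries against 2, 0 of 195 passed in input, medium or heavy by edgeR, DESeq2 or limma, and 0% of all genes passed by edgeR. Before adjustment 5, 2 and 4 members had p under 0.05. The smallest unadjusted p in input belonged to Tmem39a, an ER protein, with 6.11 and 5.07 CPM in KO and 8.75 and 7.73 in WT (-0.57 ± 0.21, adjusted p = 0.89). In heavy it was Tmem86a, a lysoplasmalogenase, with 20 and 19.2 CPM in KO and 12.9 and 11.3 in WT (0.70 ± 0.20, adjusted p = 1). In medium it was Tmem79, with 1.97 and 2.09 against 1.03 and 1.15 (0.88 ± 0.25, adjusted p = 0.999). Tmem88b was lower in both KO libraries than in both WT libraries in input (66.4 and 54.2 against 79.4 and 75 CPM, -0.36 ± 0.14, adjusted p = 0.89) and in medium (88.5 and 86.8 against 101 and 114, -0.29 ± 0.14, adjusted p = 0.999). Fmr1 itself did not pass either, with -2.0 ± 0.27 in input (adjusted p = 0.0647), -1.61 ± 0.28 in medium (0.722) and -1.54 ± 0.30 in heavy (0.751). In this design a change of that size with that SE therefore did not pass over all genes. The members' median SE was 0.21, 0.22 and 0.23 in input, medium and heavy, and smaller changes of members could be missed.

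The response to HHT did not differ between genotypes past the threshold for any member. The genotype by treatment term called 0 of 195 members and 0% of all genes in each fraction by edgeR, and 0 members by DESeq2 and by limma, with 7, 1 and 5 members at unadjusted p under 0.05 in input, medium and heavy. The members' median change under HHT was 0.55, 0.52 and 0.96 in WT and 0.37, 0.37 and 0.80 in KO over the same fractions. The median of the genotype by treatment term was -0.15, -0.05 and -0.17 for members. It was -0.11, -0.14 and -0.11 for the other genes with a segment, and 0.01, 0.03 and 0 for those without one. Tmem255a had the smallest p in input, with 28.9 and 26.7 CPM in WT HHT against 7.7 in WT vehicle, and 21.2 and 22.1 in KO HHT against 12.9 in KO vehicle (-1.10 ± 0.41, adjusted p = 1). In heavy it was Tmem97, the sigma-2 receptor, with -1.23 ± 0.51 (adjusted p = 1), and in medium Tmem184c with -0.92 ± 0.41 (adjusted p = 0.999). Each term rests on 1 vehicle library per genotype.

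The vehicle libraries of the 2 genotypes have no replicates, and their difference is given without a test. KO minus WT had a median over members of 0.20 in input, 0.10 in medium and 0.22 in heavy on the log2 scale, against 0.01, 0.01 and 0.03 for all genes. How the other genes with a segment differed between these vehicle libraries was not examined. The KO library was the higher for 142, 131 and 136 of the 195 members. A difference of more than 1 was seen for 2, 1 and 2 members (1.03%, 0.513% and 1.03%), beside 0.415%, 0.394% and 0.558% of all genes. Whether this reflects genotype or the 1 lysate of each genotype cannot be told apart.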

How the data were processed

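Per the labels' protocols, input was saved from lysates cleared by 2 spins before detergent was added, and the medium and heavy pools were picked by FMRP immunoblot. According to the submitters' processing notes the tools included RSEM 1.2.11, Bowtie2 2.1.0, DESeq2 1.16.1 and Trimmomatic 0.32, on mm10, with no roles stated. The authors deposited estimated counts (expected counts, 0 of 251514 values whole within 1e-06) and a score they call TPM, here rescaled TPM, since 10 of 18 columns sum to more than TPM can. Any selection of genes or batch adjustment is not described in those sources.

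Rounded counts entered 1 edgeR fit (4.0.16, R 4.3.3; TMM, 12 group means, 2-sided quasi-likelihood tests, 6 residual and 7.36 prior degrees of freedom). Groups of 1 vehicle library borrow their spread from the HHT replicates. Benjamini-Hochberg adjustment ran over 13973 genes in each of 13 comparisons at 0.05. The low-count filter removed no gene, and the fit was tested on simulated data. Totals of 6226237 to 13834652 counts gave a median SE of members between 0.19 and 0.45 over the comparisons.

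The naming rule took, per comparison, up to 8 rises and 8 falls past 0.05 whose sides did not overlap and whose mean reached 5 CPM, up to 4 per role list by adjusted p in medium, 8 sets of numbered relatives, the extremes of level and protein length, and the 3 smallest p where none passed. Not every gene it picked is described, and 1 of them is not reported here. Tmem98, Tmem125 and Tmem175 fell outside it and were chosen after their values were seen. The members and lists were chosen with earlier results of these data known. Protein lengths and segments came from translated GENCODE M21 coding sequences in place of the RefSeq proteins first planned, which were not used here.

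Alternatives were RLE factors, scaling by total counts, no filter, single HHT lysates left out, replicate blocks, single fractions or genotypes, limma 3.58.1 on log2(rescaled TPM + 1) or + 0.1, DESeq2 1.42.0, and a hydropathy of 1.8. Added after seeing the data were HHT replicate 1 or 2 alone, because the lowest rescaled TPM was 0.7722 to 0.9041 in HHT replicate 2 libraries and 1.004 to 1.043 elsewhere, and members of at least 5 CPM.

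The 3 fractions of a replicate number within a genotype and treatment share a lysate per the labels' protocols, so that number pairs them. Over all genes the differences between both HHT replicates had correlations of 0.349 (WT) and 0.211 (KO) between input and medium, and of 0.0142 to 0.0654 for the pairs with heavy.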

Additional observations from a re-analysis of the deposited data

Results flagged for a closer look

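For 17 members given here the response to HHT in a polysome pool differed from that in input by a test of the difference itself (edgeR, ratio to input, HHT against vehicle, adjusted p under 0.05). Toward a lower medium to input ratio were Tmem199 (-1.32), Tmem14c (-1.21), Tmem126a (-1.11), Tmem160 (-1.10), Tmem70 (-0.89), Tmem237 (-0.77), Tmem55a (-0.76) and Tmem11 (-0.70). Toward a higher ratio in medium were Tmem170b (0.90) and Tmem164 (0.66). In heavy the ratio to input rose for Tmem184c (1.40), Tmem178b (1.40), Tmem251 (1.39), Tmem245 (1.29), Tmem164 (1.26), Tmem8b (1.23) and Tmem170b (1.21). It fell for Tmem135 (-1.22) and Tmem143 (-0.64). Tmem164 and Tmem170b are in both sets, and both comparisons share the input libraries. Tmem170b held 68.2 (WT) and 60.1 (KO) CPM in vehicle input, 40.8 and 40.1 in vehicle medium and 33.2 and 50.2 in vehicle heavy. Under HHT its levels were 39 to 58.1 CPM in input, 57.5 to 62.9 in medium and 60.5 to 90.5 in heavy. No group held enough libraries for a test of single outlying libraries.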

How the results depend on the processing

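Of 270 counts of members called under an alternative, 223 stayed within 1.5 times the main count and 47 did not, and of 1111 values of single named members 1007 kept direction and call, 104 lost the call and 0 reversed. The cause of the shifts was not tested. HHT against vehicle in input, 74 rises, gave 34 in WT and 5 in KO slices alone (3 libraries each) and 38 by limma with either pseudocount. In medium KO slices alone gave 48 rises and 2 falls, against 89 and 12. The 3 falls in heavy became 1 in WT alone, 1 in KO alone and 1 by limma with either pseudocount. For medium to input in vehicle, 7 higher became 3 by total counts and 3 by limma, and 9 lower became 16 by limma. For heavy to input in vehicle, 3 higher became 1 by total counts and 1 by limma, and 86 lower became 137 by total counts. The HHT shift of medium to input, 2 higher and 10 lower, gave 4 higher by RLE factors, 6 higher and 5 lower by limma, and 6 lower by DESeq2. The shift of heavy to input, 38 higher and 2 lower, gave 59 and 1 by total counts, 5 lower by RLE factors, and 92 or 94 higher by limma with a pseudocount of 1 or 0.1.

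With the replicate number within each fraction as a block, medium to input in vehicle had 17 higher and 23 lower, its HHT shift 13 higher and the heavy shift 60 higher. The replicate block by lysate gave 10 higher for the medium shift and moved no other count past 1.5 times. No source used here says whether WT and KO lysates of 1 number were prepared together. Their differences between replicates correlated at 0.323 in input, 0.165 in medium and 0.00332 in heavy.

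Leaving out single HHT lysates gave 47 to 75 rises in input (47 without KO HHT replicate 1), 70 to 89 rises and 9 to 13 falls in medium, and 117 to 125 and 2 to 3 in heavy. Medium to input in vehicle had 3 to 5 higher (3 and 4 when KO HHT replicate 1 or 2 was left out) and 7 to 9 lower, and heavy to input 2 to 3 and 78 to 86. The medium shift had 1 to 4 higher (4 without KO HHT replicate 1, and 1 when another lysate was left out) and 2 to 9 lower (5 without WT and 2 without KO HHT replicate 2). The heavy shift had 24 to 40 higher (24 without KO HHT replicate 2) and 1 to 2 lower (1 without WT or KO HHT replicate 2). KO against WT and the genotype by treatment terms stayed at 0. Among the 157 members of at least 5 CPM, 70 rose in input, 87 rose and 11 fell in medium, and 123 rose and 3 fell in heavy. Depth limits the members near 1 CPM most.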
